A study of Homo sapiens with 14 samples.

Results

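The collagen chain genes are the 44 genes in the count table whose symbol has the form COL, a type number, A and a chain number, out of 26485 genes listed. They encode the chains of 28 collagen types and were grouped by textbook class: 11 fibrillar, 6 basement membrane, 10 fibril-associated (FACIT), 5 beaded filament, 3 network forming, 1 anchoring, 2 multiplexin, 4 transmembrane and 2 others. The study profiled bulk poly(A) RNA of the human embryonic stem cell line WA01 (also called H1) and of neural crest cells induced from it, to examine how TGF-beta signalling acts during induction. Each of the 7 groups had 2 libraries. One group was the embryonic stem cells (hESC). The other 6 were collected on day 5 from cultures on Matrigel, a basement membrane extract, in DMEM/F12 with B27 and albumin. CHIR99021, a GSK3 inhibitor that activates Wnt signalling, was given from hour 0 to 72 at 3 µM (low Wnt) or 10 µM (high Wnt). Each dose was used alone, with 10 µM SB431542 (SB4 below), an inhibitor of the TGF-beta type I receptor kinases, or with recombinant human TGF-beta 1 (TGFB below), given at a labelled 5 ng/µL. Both additives were present from hour 0 to 120. All groups came from 1 cell line. Nothing in the labels tells if replicate libraries were made from separate cultures, so the p-values speak only for the spread among these libraries, and that spread may be technical.

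Collagens are triple helices of 3 chains, and many types need chains from more than 1 gene, so the genes of a type are often read together. Fibrillar collagens form the load-bearing fibrils of connective tissue, FACIT collagens decorate them, and type IV collagen forms the network of basement membranes. Cranial neural crest is known as a source of collagen-rich cartilage, bone and dermis, and TGF-beta is a classical inducer of fibrillar collagen transcription through SMAD2 and SMAD3.

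Library totals ran from 10879287 to 19106827 counted fragments, and 3 fragments corresponded to 0.157 to 0.269 CPM (counts scaled to a fixed library size). Levels are CPM scaled by trimmed mean of M values (TMM), and a gene was called when its adjusted p from edgeR's quasi-likelihood test over 16149 genes was under 0.05. Of the 44 members, 42 passed the filter on low counts, and 29 reached a group mean of 10 CPM and are described library by library. The summed level of 8 embryonic stem cell markers was 6619 to 6786 CPM in hESC, 3031 to 3399 with low Wnt + TGFB and at most 1841 in the other induced groups. The neural crest markers did not move as a set. SOX10, a defining neural crest gene, was at 4.74 and 6.53 CPM in hESC and at 0.368 to 1.66 CPM in the 6 high-Wnt libraries, whereas PAX3 was at 0.17 CPM or less in hESC and 169 to 259 CPM in the high-Wnt libraries. TFAP2B was at 0.074 CPM or less in hESC, 0.0635 CPM or less in the high-Wnt libraries and 2.35 to 4.92 CPM in the low-Wnt groups. From hESC to low Wnt, 7 of the 10 neural crest markers were called higher and 2 lower, against 35.8% and 35.6% of all genes. From hESC to high Wnt, 4 were called higher and 3 lower, against 36.3% and 36.1% of all genes.

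Summed over the 44 genes, collagen counts were lowest in hESC and highest with high Wnt + TGFB. The sum was 2852 and 2904 CPM in the 2 hESC libraries. It was 3608 and 3651 CPM with low Wnt, 3435 and 3477 with low Wnt + SB4, and 3187 and 3784 with low Wnt + TGFB. It was 5634 and 5776 CPM with high Wnt, 3860 and 3945 with high Wnt + SB4, and 7929 and 7790 with high Wnt + TGFB. On this scale the 3 high-Wnt groups did not overlap with each other or with any low-Wnt group. By library totals, high Wnt + SB4 overlapped with low Wnt + TGFB, and no other high-Wnt group overlapped with any group. Collagen genes took 0.3998% of the counts of low-Wnt + TGFB replicate 2 and 0.3921% of those of high-Wnt + SB4 replicate 1. The low-Wnt + TGFB libraries spanned the values of both other low-Wnt groups. In bulk libraries, fewer cells of a type and less RNA per cell cannot be told apart.

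**Figure D1:**
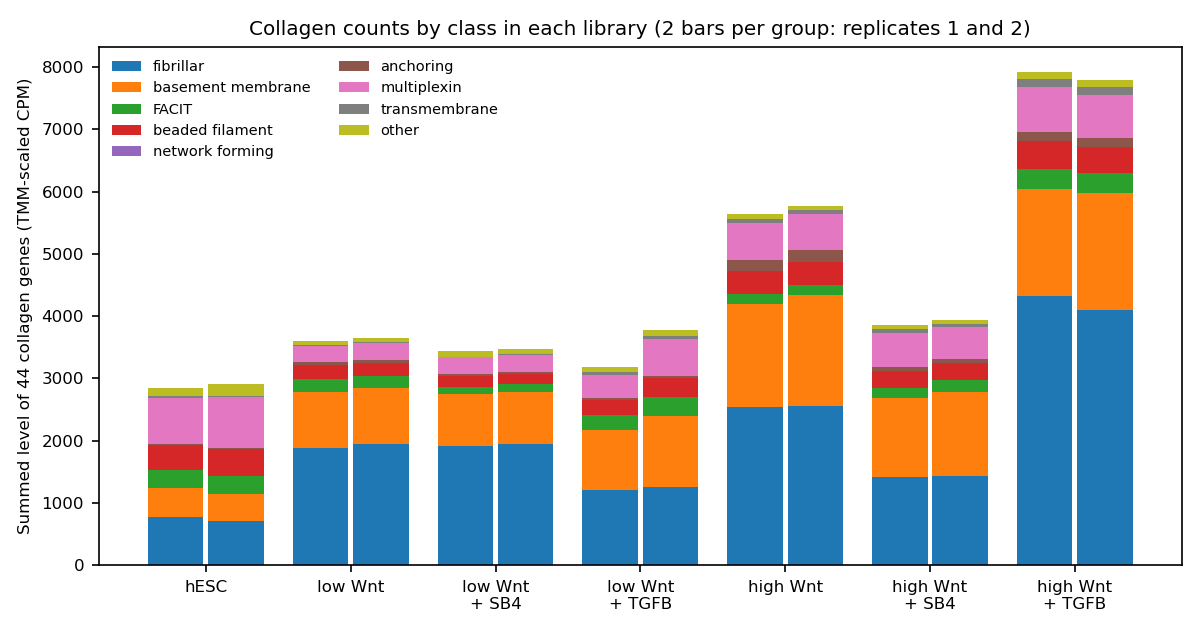
Summed TMM-scaled CPM of the 44 collagen genes in each of the 14 libraries, stacked by collagen class, with 2 bars per group for replicates 1 and 2. The high Wnt + TGFB bars reach 7929 and 7790 CPM, of which 4319 and 4096 are fibrillar, against totals of 2852 and 2904 in hESC.

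The make-up of the sum differed between groups as well. Fibrillar genes took 24.2% to 26.9% of collagen counts in hESC, 52.1% to 55.8% with low Wnt alone or with SB4, and 33.3% to 37.9% with low Wnt + TGFB. At the high dose their share was 44.3% to 45% alone, 36.4% to 36.5% with SB4 and 52.6% to 54.5% with TGFB. The multiplexin share, nearly all COL18A1, was 25.6% to 27.8% in hESC and 7.25% to 15.4% after induction. The gene with the most counts was COL18A1 in hESC and low Wnt + TGFB, COL1A2 in low Wnt and high Wnt + TGFB, COL2A1 in low Wnt + SB4, and COL4A2 in high Wnt and high Wnt + SB4. High Wnt + TGFB held the highest group mean of 16 of the 29 described genes, hESC of 6, and high Wnt + SB4 of 0. This count was not made over all genes, so it does not show a trait particular to collagen genes.

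Type I collagen, the main fibril of bone and dermis, is built from 2 chains of COL1A1 and 1 of COL1A2. COL1A1 stood at 240.3 and 237 CPM in hESC, 254 and 269.6 with low Wnt, 102 and 85.8 with low Wnt + SB4 and 194 and 211 with low Wnt + TGFB. It stood at 514 and 505 CPM with high Wnt, 79.5 and 84.8 with SB4 added and 605 and 609 with TGFB added. The SB4 libraries were the lowest at each dose and lay below hESC. COL1A1 fell with SB4 in low Wnt (-1.48 ± 0.10 log2, adjusted p = 5.01e-08) and fell further in high Wnt (-2.63 ± 0.10 log2, adjusted p = 7.96e-11). With TGFB it changed by -0.37 ± 0.10 log2 in low Wnt, a call lost without low-Wnt replicate 2 (adjusted p = 0.0764) or low-Wnt + TGFB replicate 1 (0.112), and by 0.25 ± 0.09 in high Wnt (adjusted p = 0.123).

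COL1A2 followed another course. It stood at 248 and 226 CPM in hESC, 651 and 709 with low Wnt, 491 and 511 with low Wnt + SB4 and 272 and 282 with low Wnt + TGFB. At the high dose it stood at 547 and 563 CPM alone, 288 and 261 with SB4 and 1347 and 1219 with TGFB. Its low Wnt + TGFB libraries lay below, and its high Wnt + TGFB libraries above, the libraries of the same dose without additive. TGFB changed COL1A2 by -1.30 ± 0.09 log2 in low Wnt (adjusted p = 3.33e-08) and by 1.21 ± 0.09 in high Wnt (adjusted p = 6.88e-07).

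COL2A1 encodes type II collagen, the fibril of cartilage. It stood at 27.4 and 32.6 CPM in hESC, 319.9 and 338 with low Wnt, 612 and 610.2 with low Wnt + SB4 and 187 and 231 with low Wnt + TGFB. High Wnt gave 542 and 553 CPM, high Wnt + SB4 446 and 446 and high Wnt + TGFB 1045 and 1001. The order of the 3 low-Wnt groups was thus the reverse of the order of the 3 high-Wnt groups, with no overlap between libraries. COL2A1 rose with SB4 in low Wnt (0.89 ± 0.10 log2, adjusted p = 2.37e-05), fell there with TGFB (-0.65 ± 0.10, adjusted p = 0.000171) and rose with TGFB in high Wnt (0.90 ± 0.10, adjusted p = 3.81e-05). Its change with SB4 in high Wnt was -0.30 ± 0.10 log2 and was not called (adjusted p = 0.0501).

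COL11A1, whose chain joins type II fibrils in type XI collagen, stood at 79.3 and 65.5 CPM in hESC, 178 and 172 with low Wnt, 285 and 302 with SB4 added and 188 and 163 with TGFB added. With 10 µM CHIR99021 the values were 286 and 307 CPM alone, 150.2 and 163 with SB4 and 255 and 253 with TGFB. SB4 moved it in opposite directions, by 0.74 ± 0.10 log2 in low Wnt (adjusted p = 0.000159) and -0.92 ± 0.11 in high Wnt (adjusted p = 1.22e-05). With TGFB it was called at neither dose (adjusted p of 0.99 and 0.233).

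COL3A1, the type III chain of distensible tissues, stood at 0.296 and 0.679 CPM in hESC, where its counts were 4 and 8 fragments, then at 5.54 and 8.49 with low Wnt, 9.02 and 11.1 with SB4 and 18.8 and 25.1 with TGFB. The high-Wnt libraries had 50.8 and 52.6 CPM, those with SB4 20.3 and 21.2 and those with TGFB 132 and 131. The high Wnt + TGFB libraries were the highest of all 14. COL3A1 rose with TGFB at both doses, by 1.65 ± 0.19 log2 in low Wnt (adjusted p = 5.98e-06) and 1.34 ± 0.16 in high Wnt (adjusted p = 5.05e-05), and fell with SB4 in high Wnt (-1.32 ± 0.17, adjusted p = 3.73e-05).

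Type V collagen is a minor fibrillar collagen that nucleates fibrils of type I, and its 3 genes did not share a pattern. COL5A1 stood at 32.1 and 27.6 CPM in hESC, 220.5 and 211 with low Wnt, 169 and 166 with SB4 and 140.3 and 137 with TGFB. In high Wnt its level was 190.5 and 173 CPM, against 167 and 174 with SB4 and 292 and 243 with TGFB. COL5A1 rose from hESC to each Wnt dose, by 2.85 ± 0.11 log2 (adjusted p = 2.32e-12) in low Wnt and 2.60 ± 0.11 (adjusted p = 5.54e-12) in high Wnt. COL5A2 stood at 82.9 and 66.7 CPM in hESC, 65.3 and 73.5 with low Wnt, 73.1 and 75 with SB4 and 109 and 114 with TGFB. At the high dose it stood at 289 and 293 CPM alone, 179 and 194 with SB4 and 476 and 500.3 with TGFB. COL5A2 overlapped between hESC and low Wnt but rose from low to high Wnt by 2.07 ± 0.11 log2 (adjusted p = 1.28e-10), and it rose with TGFB at both doses (0.68 and 0.74 log2).

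COL5A3, the remaining type V gene, stood at 3.77 and 3.48 CPM in hESC, 82.6 and 80 with low Wnt, 61.8 and 64.4 with SB4 and 12.7 and 10.7 with TGFB. High Wnt gave 33 and 21.1 CPM, high Wnt + SB4 4.13 and 3.57 and high Wnt + TGFB 39.9 and 38.2. At the low dose the TGFB libraries were the lowest, and at the high dose the SB4 libraries were. It fell with TGFB in low Wnt (-2.80 ± 0.17 log2, adjusted p = 6.04e-09) and with SB4 in high Wnt (-2.81 ± 0.19 log2, adjusted p = 4.99e-08). COL27A1, a fibrillar gene of cartilage, varied less, with 51.6 and 42.7 CPM in hESC, 101 and 87.5 with low Wnt, 113 and 111 with SB4 and 83.8 and 86.3 with TGFB. At the high dose it had 85.4 and 90.3 CPM alone, 74 and 89.6 with SB4 and 127 and 101 with TGFB, and neither additive was called against the same dose alone.

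**Figure D2:**
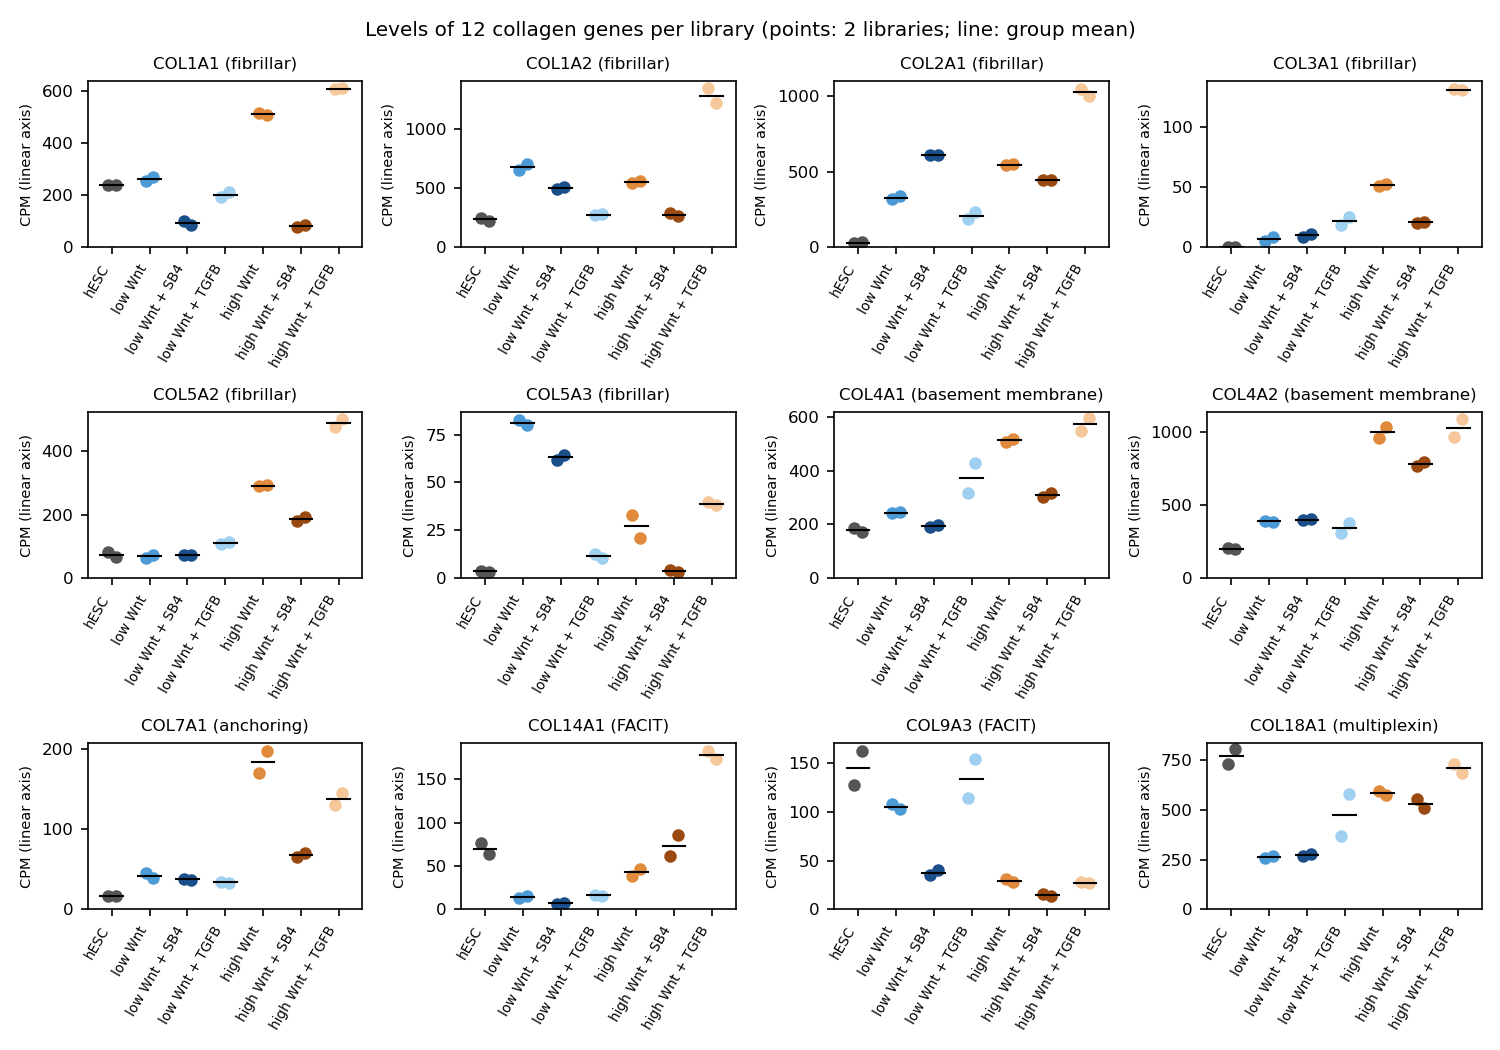
TMM-scaled CPM on linear axes of 12 collagen genes in 14 libraries (points, 2 per group) with the group mean (line). COL1A1 in the SB4 groups sits between 79.5 and 102 CPM, below every other library, and COL5A3 is at 3.57 to 4.13 CPM with high Wnt + SB4 against 61.8 to 64.4 with low Wnt + SB4.

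The major basement membrane chains, COL4A1 and COL4A2, form the ubiquitous type IV network and lie head to head on chromosome 13 in hg38, COL4A1 on the minus strand ending at 110307157 and COL4A2 on the plus strand starting at 110307284. The 126 bases between the 2 start sites (GRCh38.p14, chr13:110307158-110307283, plus strand, read from RefSeq promoters) are printed because a pair with one shared interval can be compared chain by chain. Capitals mark matches on either strand to 3 motifs searched, CCAAT (the CCAAT box), GGGCGG (the GC box bound by SP1) and CAGAC (the Smad binding element).
COL4A1-COL4A2 interval: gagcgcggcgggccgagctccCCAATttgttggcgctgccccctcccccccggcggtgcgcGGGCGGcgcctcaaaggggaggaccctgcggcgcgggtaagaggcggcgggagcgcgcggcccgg
The interval held 1 CCAAT match, 1 GGGCGG match and 0 CAGAC matches. Of 35116 RefSeq promoters, the 126 bases before the start site held these motifs in 21.1%, 34.6% and 19.8%, so neither match was rare, and a match or its lack is a description of letters only.

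COL4A1 stood at 188 and 173 CPM in hESC, 244 and 245 with low Wnt, 192 and 199 with SB4 and 316 and 427 with TGFB. With 10 µM CHIR99021 the values were 505 and 519 CPM alone, 304 and 316 with SB4 and 548 and 595 with TGFB. COL4A2 stood at 205 and 201 CPM in hESC, 395 and 385 with low Wnt, 397 and 404 with SB4 and 311 and 375 with TGFB. The high-Wnt libraries had 960.0 and 1035 CPM, those with SB4 768 and 797 and those with TGFB 969.7 and 1089.5. Both genes rose from low to high Wnt, COL4A1 by 1.07 ± 0.12 log2 (adjusted p = 1.14e-06) and COL4A2 by 1.35 ± 0.10 (adjusted p = 9.81e-09). With the additives the estimates of the pair differed. COL4A1 rose with TGFB in low Wnt (0.60 ± 0.11 log2, adjusted p = 0.000867) while COL4A2 changed by -0.18 ± 0.10 (adjusted p = 0.184), and with SB4 in high Wnt COL4A1 fell by 0.73 log2 and COL4A2 changed by -0.35, a call lost without high-Wnt replicate 2 (adjusted p = 0.11) or either SB4 library. The difference between the 2 genes was not tested.

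COL4A5 and COL4A6, the chains of the epithelial type IV network, form a second head-to-head pair, on chromosome X with 346 bases between them. The 250 bases before the RefSeq start site of COL4A5 (GRCh38.p14, chrX:108439588-108439837, plus strand) lie in that interval and are shown for comparison with the COL4A1-COL4A2 interval.
COL4A5 upstream: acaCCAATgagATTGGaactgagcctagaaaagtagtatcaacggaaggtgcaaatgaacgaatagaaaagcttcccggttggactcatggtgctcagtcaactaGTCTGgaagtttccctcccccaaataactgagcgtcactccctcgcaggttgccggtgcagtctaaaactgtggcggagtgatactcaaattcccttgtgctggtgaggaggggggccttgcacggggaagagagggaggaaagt
They held 2 CCAAT matches, 0 GGGCGG matches and 1 CAGAC match, against shares of 32%, 42.6% and 38% of RefSeq promoters with at least 1 match in 250 bases. COL4A5 stood at 32 and 28.2 CPM in hESC, 168 and 152 with low Wnt, 161 and 165 with SB4 and 167 and 149.6 with TGFB, then 111 and 138 with high Wnt, 117 and 134 with SB4 and 120.2 and 109 with TGFB. COL4A6 stood at 34.3 and 25.7 CPM in hESC, 101 and 106 with low Wnt, 82.3 and 81.6 with SB4 and 161 and 173 with TGFB, then 79.3 and 89.3 with high Wnt, 84.2 and 97.8 with SB4 and 90 and 85.7 with TGFB. Both rose from hESC to low Wnt, by 2.41 ± 0.13 log2 (COL4A5, adjusted p = 7.28e-11) and 1.78 ± 0.13 (COL4A6, adjusted p = 2.65e-09). COL4A5 was called with neither additive at either dose, whereas COL4A6 rose with TGFB in low Wnt (0.69 ± 0.12 log2, adjusted p = 0.000318).

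COL4A3 and COL4A4, the chains of the kidney-type network, also lie head to head, with 5 bases between them on chromosome 2, and stayed below 3 CPM in every library. COL4A4 had 3 and 4 fragments in the low-Wnt libraries and 38 and 36 with low Wnt + TGFB, a rise of 3.45 ± 0.50 log2 (adjusted p = 6.16e-05). COL4A3 had 2 and 1 fragments with low Wnt and 11 and 15 with low Wnt + TGFB (3.09 ± 0.79 log2), and its call was lost without low-Wnt replicate 2 (adjusted p = 0.0873) or low-Wnt + TGFB replicate 2 (0.0626).

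The FACIT genes ran in several directions. COL14A1, whose product binds fibrils through decorin, stood at 76.7 and 63.7 CPM in hESC, 12.6 and 15.3 with low Wnt, 6.64 and 7.33 with SB4 and 16.6 and 15.7 with TGFB. In high Wnt its level was 38.6 and 46.7 CPM, against 61.9 and 85.4 with SB4 and 183 and 174 with TGFB. SB4 lowered COL14A1 in low Wnt (-0.99 ± 0.18 log2, adjusted p = 0.00177) and raised it in high Wnt (0.79 ± 0.15, adjusted p = 0.0012), where TGFB raised it more (2.06 ± 0.15, adjusted p = 5.03e-07). Both additives thus gave higher COL14A1 than high Wnt alone, with no overlap of libraries.

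Type IX collagen, the FACIT of cartilage fibrils, has chains from 3 genes. COL9A1 stood at 29.7 and 27.6 CPM in hESC, 43.5 and 43 with low Wnt, 37.4 and 36.6 with SB4 and 41.7 and 41.4 with TGFB, then 17 and 17.9 with high Wnt, 33.6 and 42.2 with SB4 and 17.2 and 18.2 with TGFB. COL9A2 stood at 5.25 and 4.33 CPM in hESC, 21.3 and 20.3 with low Wnt, 13.3 and 12.3 with SB4 and 45.7 and 68.3 with TGFB, then 33.8 and 32.6 with high Wnt, 27.4 and 27.6 with SB4 and 39.7 and 40.2 with TGFB. COL9A3 stood at 127 and 163 CPM in hESC, 108 and 103 with low Wnt, 35.4 and 40 with SB4 and 114 and 154 with TGFB, then 31.1 and 27.7 with high Wnt, 16 and 13.5 with SB4 and 27.7 and 27.4 with TGFB. SB4 in high Wnt raised COL9A1 (1.12 ± 0.13 log2, adjusted p = 1.06e-05) and lowered COL9A3 (-0.99 ± 0.16, adjusted p = 0.00038), so the chains of one type moved apart. From hESC to high Wnt, COL9A2 rose by 2.78 ± 0.19 log2 (adjusted p = 1.12e-09) and COL9A3 fell by 2.30 (adjusted p = 8.39e-10).

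COL12A1, a FACIT of tendon and dermis, stood at 19.8 and 15.9 CPM in hESC, 7.06 and 8.37 with low Wnt, 7.13 and 6.97 with SB4 and 14.3 and 14 with TGFB, then 2.08 and 3.64 with high Wnt, 1.33 and 1.39 with SB4 and 5.46 and 4.66 with TGFB. COL16A1 stood at 18.4 and 13.8 CPM in hESC, 6.33 and 5.02 with low Wnt, 3.41 and 2.78 with SB4 and 9.1 and 9.89 with TGFB, then 7.06 and 6.05 with high Wnt, 4.76 and 3.29 with SB4 and 8.51 and 7.11 with TGFB. For both genes hESC held the highest level, and the fall to low Wnt was 1.21 log2 for COL12A1 (adjusted p = 6.08e-05) and 1.51 for COL16A1 (adjusted p = 1.37e-05). COL22A1, a gene of tissue junctions, stood at 5.55 and 6.7 CPM in hESC, 5.66 and 5.68 with low Wnt, 11.2 and 12.2 with SB4 and 5.05 and 6.5 with TGFB, then 20.6 and 23.3 with high Wnt, 14.2 and 15.6 with SB4 and 31.4 and 44 with TGFB. It rose with SB4 in low Wnt (1.05 ± 0.19 log2, adjusted p = 0.00161) and from low to high Wnt (1.95 ± 0.19, adjusted p = 2.8e-07).

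Type VI collagen forms beaded filaments around cells, and its usual trimer takes 1 chain each of COL6A1, COL6A2 and COL6A3. COL6A1 stood at 234 and 245 CPM in hESC, 142 and 135 with low Wnt, 129.9 and 119 with SB4 and 137 and 171 with TGFB, then 243 and 232 with high Wnt, 181 and 190.1 with SB4 and 258 and 244 with TGFB. COL6A2 stood at 155 and 169 CPM in hESC, 73.7 and 73.2 with low Wnt, 37 and 35.8 with SB4 and 96.3 and 128 with TGFB, then 123 and 114 with high Wnt, 84.4 and 75.6 with SB4 and 151 and 138 with TGFB. COL6A3 stood at 12 and 10.9 CPM in hESC, 1.64 and 1.85 with low Wnt, 1.04 and 0.629 with SB4 and 5.05 and 5.33 with TGFB, then 15.1 and 17.7 with high Wnt, 6.86 and 6.52 with SB4 and 43.3 and 43.2 with TGFB. All 3 fell from hESC to low Wnt and rose from low to high Wnt, COL6A3 by 3.22 ± 0.20 log2 (adjusted p = 8.57e-10), COL6A1 by 0.78 ± 0.10 (adjusted p = 1.37e-05) and COL6A2 by 0.69 ± 0.12 (adjusted p = 0.000208). COL6A3 rose with TGFB at both doses (1.57 and 1.40 log2) and COL6A2 fell with SB4 at both (-1.01 and -0.57 log2).

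COL7A1 encodes the anchoring fibril between epithelial basement membrane and dermis, and its transcription is known to respond to TGF-beta. The 250 bases before its RefSeq start site (GRCh38.p14, chr3:48595330-48595579, minus strand) are shown because it was the called gene with TGFB in high Wnt that fell. That start site lies 169 bases upstream of the start in the count table.
COL7A1 upstream: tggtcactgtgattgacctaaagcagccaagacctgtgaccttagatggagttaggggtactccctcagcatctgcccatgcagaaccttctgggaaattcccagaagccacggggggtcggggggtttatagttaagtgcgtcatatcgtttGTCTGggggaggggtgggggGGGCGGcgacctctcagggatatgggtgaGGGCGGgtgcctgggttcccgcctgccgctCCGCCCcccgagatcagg
They held 0 CCAAT matches, 3 GGGCGG matches and 1 CAGAC match. Of RefSeq promoters, 32%, 42.6% and 38% held at least 1 match in 250 bases, so these counts describe letters only. COL7A1 stood at 17.1 and 17.1 CPM in hESC, 44.7 and 39.3 with low Wnt, 38.2 and 36.5 with SB4 and 34.6 and 33.2 with TGFB. At the high dose it stood at 170.4 and 198 CPM alone, 65.8 and 69.8 with SB4 and 130.2 and 145 with TGFB. Its highest group was high Wnt alone, and both additives lay below it. COL7A1 rose from low to high Wnt by 2.13 ± 0.11 log2 (adjusted p = 8.95e-11) and fell with SB4 in high Wnt by 1.44 log2 (adjusted p = 8.95e-08). Its fall with TGFB in high Wnt (-0.42 ± 0.10 log2, adjusted p = 0.018) was not called without high-Wnt replicate 2 (0.202) or high-Wnt + TGFB replicate 1 (0.204).

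COL18A1, the multiplexin whose C-terminal fragment is endostatin, stood at 731 and 807 CPM in hESC, 259.7 and 268 with low Wnt, 267 and 279 with SB4 and 367 and 581 with TGFB. High Wnt gave 593 and 574 CPM, high Wnt + SB4 552 and 510.2 and high Wnt + TGFB 731 and 688. The 2 low-Wnt + TGFB libraries lay far apart from each other but above the low-Wnt libraries. COL18A1 fell from hESC to low Wnt (-1.54 ± 0.15 log2, adjusted p = 9.17e-08) and rose with TGFB in low Wnt (0.85 ± 0.15, adjusted p = 0.000368).

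Among the transmembrane collagens, COL13A1, found at adhesion sites, stood at 8.66 and 7.55 CPM in hESC, 6.58 and 6.4 with low Wnt, 2.68 and 1.73 with SB4 and 10.3 and 9.25 with TGFB, then 34.9 and 38 with high Wnt, 29.3 and 28 with SB4 and 59.3 and 58.9 with TGFB. COL23A1 stood at 12.1 and 10.9 CPM in hESC, 3.29 and 3.71 with low Wnt, 3.11 and 2.51 with SB4 and 18 and 32.3 with TGFB, then 23.9 and 21 with high Wnt, 16.6 and 14.5 with SB4 and 42.9 and 43.1 with TGFB. Both rose from low to high Wnt, by 2.49 ± 0.15 and 2.68 ± 0.24 log2. COL13A1 fell with SB4 in low Wnt (-1.57 ± 0.19 log2, adjusted p = 4.4e-05) and COL23A1 rose with TGFB in low Wnt (2.85 ± 0.24 log2, adjusted p = 1.51e-07). COL25A1, a neuronal transmembrane collagen, stood at 7.4 and 5.34 CPM in hESC, 6.88 and 8.19 with low Wnt, 4.69 and 5.71 with SB4 and 6.04 and 7.61 with TGFB, then 10.1 and 11.7 with high Wnt, 5.72 and 7.46 with SB4 and 19.8 and 16.5 with TGFB. COL26A1, placed outside the classes, stood at 143 and 182 CPM in hESC, 68.2 and 69.6 with low Wnt, 85.2 and 86.9 with SB4 and 90.7 and 105 with TGFB, then 68.7 and 61.6 with high Wnt, 65.1 and 61.1 with SB4 and 122 and 113 with TGFB. COL26A1 rose with TGFB in high Wnt (0.85 ± 0.12 log2, adjusted p = 0.000212).

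The other 15 genes stayed under 10 CPM in every group, and 13 of them were tested. COL10A1, the marker of hypertrophic cartilage, had 1 fragment in all 14 libraries together and COL6A5 had 7, and both failed the filter. COL8A2 and COL8A1, network-forming collagens of vessel wall and cornea, were highest in hESC, where COL8A2 had 84 and 90 fragments and COL8A1 had 25 and 16. With low Wnt COL8A2 had 3 and 2 fragments and COL8A1 had 0 and 1. COL8A2 fell from hESC to low Wnt by 5.44 log2 (adjusted p = 7.99e-08). COL21A1, a FACIT, ran from 0.366 CPM with low Wnt + SB4 to 6.88 CPM in hESC. COL28A1 was highest with high Wnt + SB4, at 4.51 and 5.35 CPM against 2.34 or less elsewhere. COL15A1 was highest with low Wnt, at 2.01 and 2.33 CPM against 0.30 and 0.34 in hESC (2.75 ± 0.47 log2, adjusted p = 6.25e-05). COL11A2 is listed on 7 contigs in the table, so its count is uncertain.

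**Figure D3:**
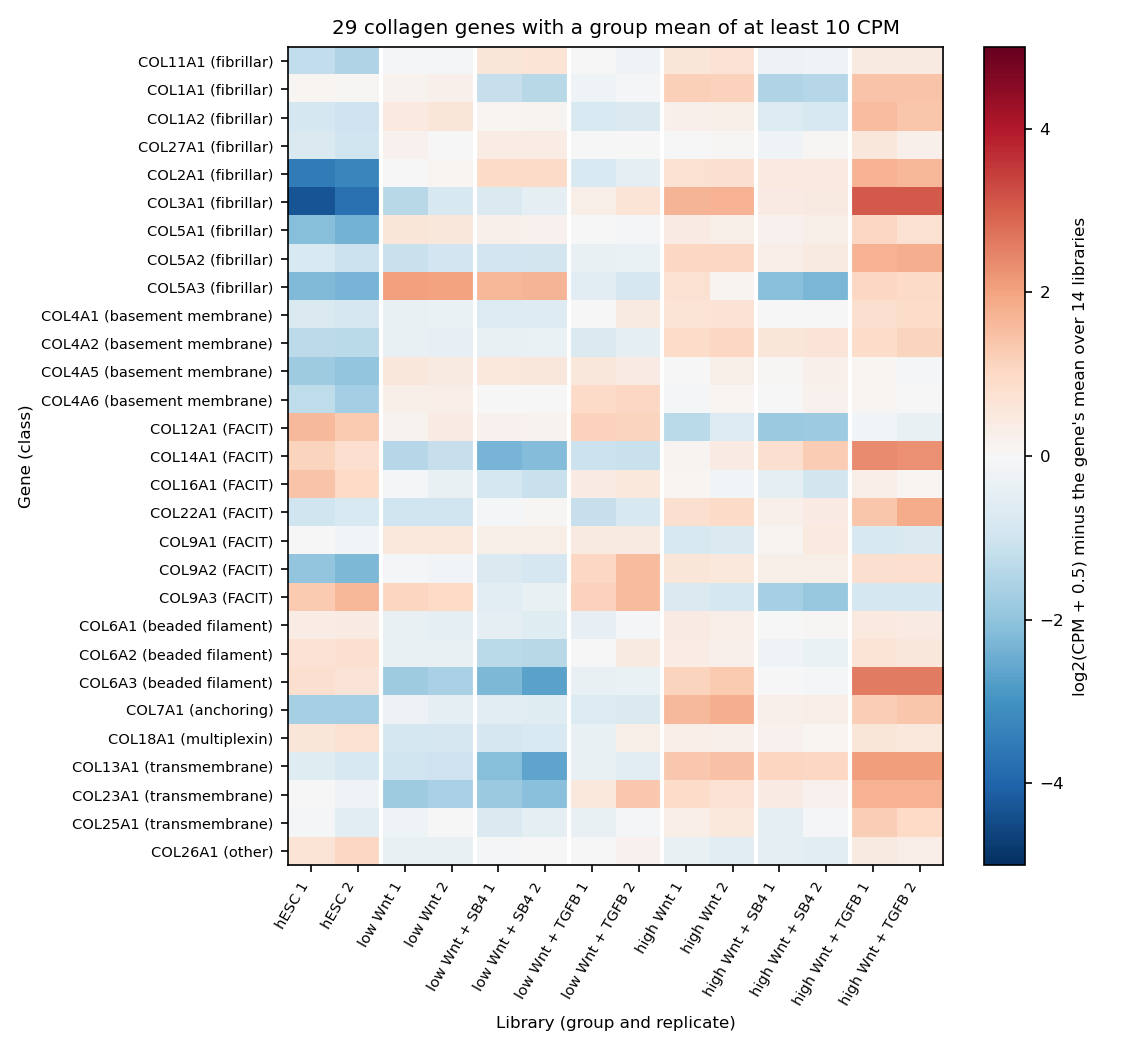
log2(CPM + 0.5) of the 29 collagen genes with a group mean of at least 10 CPM, minus each gene's mean over the 14 libraries, with libraries in columns and genes in rows grouped by class. COL3A1, COL6A3 and COL14A1 have their highest libraries with high Wnt + TGFB (131 to 132, 43.2 to 43.3 and 174 to 183 CPM), and COL12A1, COL16A1 and COL26A1 in hESC.

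From hESC to low Wnt, 7 of 11 fibrillar and 4 of 6 type IV genes were called higher, and 3 of 4 tested type VI and both tested type VIII genes were called lower. Of 10 FACIT genes, 4 were called higher and 5 lower. Of the 42 tested members, 18 were called higher and 17 lower, where 35.8% of all genes tested were called higher and 35.6% lower. The median log2 change was 0.18 over the members and 0.00 over all genes. The fibrillar genes that rose were led by COL5A3 (4.48 log2), COL3A1 (3.86) and COL2A1 (3.46), while COL24A1 fell and the other 3 were not called. All 8 stem cell markers were called lower and 5 of 6 central nervous system progenitor markers higher (summed, 3.03 and 3.22 CPM in hESC and 256 and 261 with low Wnt), and their part in the result was not tested. Leaving out 1 library ended 5 of these calls, among them COL9A3 without hESC replicate 2 (adjusted p = 0.159) or low-Wnt replicate 2 (0.0522). The others, with the library whose removal gave the largest adjusted p, were COL20A1 (0.188 without hESC replicate 1), COL6A6 (0.127 without low-Wnt replicate 2), COL17A1 (0.106 without low-Wnt replicate 1) and COL19A1 (0.0721 without hESC replicate 1).

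From hESC to high Wnt, 21 members were called higher and 13 lower, against 36.3% and 36.1% of all genes. Fibrillar genes were called higher in 9 of 11 cases, led by COL3A1 (6.74 log2, adjusted p = 4.63e-12) and COL2A1 (4.19, adjusted p = 5.26e-14). FACIT genes were called higher in 2 of 10 cases and lower in 6. COL7A1 rose by 3.43 log2. The median log2 change was 0.81 over the members and 0.01 over all genes. All 8 stem cell markers were called lower and all 6 mesoderm markers higher, and their part in the result was not tested. Calls ended on leaving out 1 library for COL6A3 without high-Wnt replicate 2 (adjusted p = 0.0849) and for COL18A1 (0.14 without hESC replicate 2), COL28A1 (0.247 without high-Wnt replicate 2), COL4A3 (0.0626 without high-Wnt replicate 2) and COL25A1 (0.0546 without hESC replicate 2).

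Between the doses, 19 members were higher and 9 lower with high than with low Wnt, against 19.4% and 19.1% of all genes, and the median log2 change was 0.68 over the members and -0.01 over all genes. Those higher included COL6A3 (3.22 log2), COL3A1 (2.88), COL23A1 (2.68), COL13A1 (2.49), COL7A1 and COL5A2. Those lower included COL9A3 (-1.85), COL5A3 (-1.59), COL12A1 (-1.41) and COL9A1 (-1.31). The mesoderm markers measured (6 of 7 listed were in the table) were all called higher with high Wnt, their summed level being 6.99 to 9.07 CPM with low Wnt and 182 to 217 CPM with high Wnt, and all 6 markers of central nervous system progenitors and all 8 stem cell markers were called lower. Their part in the result was not tested. The calls of COL1A2, COL4A5 and COL8A2 were lost on leaving out 1 library, at adjusted p up to 0.155 (without low-Wnt replicate 2), 0.242 and 0.187 (both without high-Wnt replicate 1).

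SB4 in low Wnt lowered COL1A1, COL9A3, COL13A1 and COL6A2 and raised COL2A1, COL11A1 and COL22A1. Of the 42 members, 3 were called higher and 11 lower, against 4.84% and 6.39% of all genes, and the median log2 change was -0.36 over the members and 0.00 over all genes. Of 6 basement membrane genes edgeR called 0, with 2 at an unadjusted p under 0.05, COL4A1 and COL4A6 (adjusted p of 0.0847 and 0.0802), and DESeq2 called 2. The count fell to 9 without low-Wnt replicate 1 or low-Wnt + SB4 replicate 2, and 6 calls were each lost in at least 2 such fits, with the largest adjusted p for COL1A2 (0.0694 without low-Wnt replicate 2), COL5A1 (0.176 without low-Wnt + SB4 replicate 2), COL6A3 (0.281 without low-Wnt + SB4 replicate 2), COL9A2 (0.105 without low-Wnt + SB4 replicate 2), COL16A1 (0.224 without low-Wnt + SB4 replicate 2) and COL21A1 (0.387 without low-Wnt replicate 1) as given. The summed central nervous system progenitor markers were 256 and 261 CPM with low Wnt and 413 and 452 with SB4, with 3 of 6 called higher and 1 lower. Stem cell markers summed to 1607 and 1841 CPM with low Wnt and 1188 and 1319 with SB4, with 7 of 8 called lower, and EPCAM was at 11.3 and 14.4 CPM against 1.28 and 2.36. Their part in the result was not tested.

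SB4 in high Wnt lowered 6 of 11 fibrillar genes, and the other 5 were not called. Over the 42 members 3 were called higher and 17 lower, against 9.94% and 11.6% of all genes, and the median log2 change was -0.35 over the members and 0.00 over all genes. Scaling by library totals gave 3 higher and 15 lower members and moved the share of higher calls over all genes from 46.2% to 57.0%. The genes lowered most were COL5A3 (-2.81 log2), COL1A1 (-2.63), COL7A1 (-1.44), COL3A1 (-1.32) and COL6A3 (-1.30). The genes raised were COL9A1, COL14A1 and COL28A1 (1.57 log2). The calls of 7 genes were lost on leaving out 1 library, at the largest adjusted p for COL4A2 (0.11 without high-Wnt replicate 2), COL6A1 (0.126 without high-Wnt + SB4 replicate 1), COL12A1 (0.261 without high-Wnt replicate 2), COL16A1 (0.321 without high-Wnt + SB4 replicate 2), COL22A1 (0.161 without high-Wnt replicate 2), COL25A1 (0.182 without high-Wnt + SB4 replicate 1) and COL28A1 (0.208 without high-Wnt replicate 1). Of 17 genes lowered by SB4 in high Wnt, 6 (35.3%) were also among the 11 lowered in low Wnt (54.5% of those), namely COL1A1, COL1A2, COL6A2, COL6A3, COL9A3 and COL16A1. Over all genes called lower with SB4 the shares were 23.3% of the high-Wnt list and 42.2% of the low-Wnt list. The summed fibroblast and smooth muscle markers were 1133 and 1274 CPM with high Wnt and 238 and 267 with SB4, mostly TAGLN and ACTA2, while DCN was at 0.0831 CPM or less, and 5 of 6 mesoderm markers were called lower. Central nervous system progenitor markers summed to 6.98 and 9.01 CPM with high Wnt and 75.8 and 95.6 with SB4, mostly PAX6, with 3 of 6 called higher. Their part in the result was not tested.

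TGFB in low Wnt lowered several fibrillar genes and raised genes of most other classes. Over the 42 members 18 were called higher and 6 lower, against 13.7% and 12.2% of all genes, and the median log2 change was 0.43 over the members and -0.01 over all genes. Fibrillar genes were called lower in 5 of 11 cases and higher in 2, while basement membrane genes were called higher in 4 of 6 and FACIT genes in 5 of 10, and the rest of both classes were not called. Part of this class pattern rests on calls lost on leaving out 1 library. They were those of COL12A1, COL16A1, COL19A1 and COL21A1 (FACIT), COL4A3 (basement membrane), COL13A1 (transmembrane) and COL26A1. Of the 29 described genes, 13 were called higher and 6 lower. Among the 29 described genes, those raised most were COL23A1 (2.85 log2), COL3A1 (1.65), COL6A3 (1.57) and COL9A2 (1.46). The first 3 averaged 3.50, 7.01 and 1.75 CPM with low Wnt, and COL6A3 averaged 5.19 CPM with TGFB. Those lowered most were COL5A3 (-2.80) and COL1A2 (-1.30). Scaling by library totals gave 19 higher and 5 lower members and moved the share of higher calls over all genes from 52.9% to 66.8%.

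The same low-Wnt + TGFB libraries held more endoderm and stem cell marker RNA. Summed endoderm markers (SOX17, FOXA2, GATA6 and GATA4, all 4 called higher) were 41.6 and 91.2 CPM in its replicates 1 and 2 and 2.09 CPM or less with low Wnt. All 8 stem cell markers were called higher than with low Wnt, and their summed level stayed below that of hESC. Of the 6 central nervous system progenitor markers 5 were called lower (summed, 64.2 and 61.9 CPM). EPCAM was at 109 and 144 CPM against 11.3 and 14.4, while KRT5 and KRT14 were at 0 in every library. Their part in the collagen result was not tested. Leaving out 1 library ended 9 calls. The largest adjusted p without a low-Wnt library was 0.059 for COL12A1 and 0.313 for COL7A1 (replicate 1), and 0.0755 for COL13A1, 0.171 for COL16A1, 0.156 for COL21A1 and 0.0873 for COL4A3 (replicate 2). Without a low-Wnt + TGFB library it was 0.112 for COL1A1 (replicate 1), and 0.148 for COL19A1 and 0.058 for COL26A1 (replicate 2).

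TGFB in high Wnt raised 12 members and lowered 1, COL7A1, against 3.75% and 3.49% of all genes, and the median log2 change was 0.27 over the members and 0.00 over all genes. Fibrillar genes were called higher in 5 of 11 cases (COL1A2, COL2A1, COL3A1, COL5A1 and COL5A2) and transmembrane genes in 3 of 4. Of 6 basement membrane genes edgeR called 0, with 0 at an unadjusted p under 0.05, and DESeq2 called 0. COL4A1 changed by 0.16 ± 0.11 log2, COL4A2 by 0.05 ± 0.10, COL4A5 by -0.13 ± 0.12 and COL4A6 by 0.06 ± 0.12. COL14A1 (2.06 log2), COL6A3 (1.40) and COL3A1 (1.34) rose most. Scaling by library totals gave 14 higher and 1 lower members and moved the share of higher calls over all genes from 51.8% to 66.2%. The calls of COL5A1 (adjusted p = 0.0645 without high-Wnt + TGFB replicate 1), COL23A1 (0.0772 without high-Wnt replicate 2), COL22A1 (0.176 without high-Wnt + TGFB replicate 2), COL25A1 (0.249 without high-Wnt + TGFB replicate 1) and COL7A1 (0.204 without high-Wnt + TGFB replicate 1) were lost on leaving out 1 library. The summed mesoderm markers were 182 and 217 CPM with high Wnt and 418 and 497 with TGFB, with 3 of 6 called higher. The fibroblast and smooth muscle markers summed to 1570 and 1619 CPM with TGFB, with 2 of 6 called higher. Their part in the result was not tested.

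Of the 18 raised by TGFB in low Wnt, 6 (33.3%) were among the 12 raised in high Wnt (50% of those), namely COL3A1, COL5A2, COL6A3, COL13A1, COL23A1 and COL26A1. Over all genes called higher with TGFB the shares were 8.83% of the low-Wnt list and 32.3% of the high-Wnt list. COL1A2, COL2A1 and COL5A1, 50% of the 6 lowered in low Wnt, were raised in high Wnt, against 5.16% of all genes lowered in low Wnt.

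**Figure D4:**
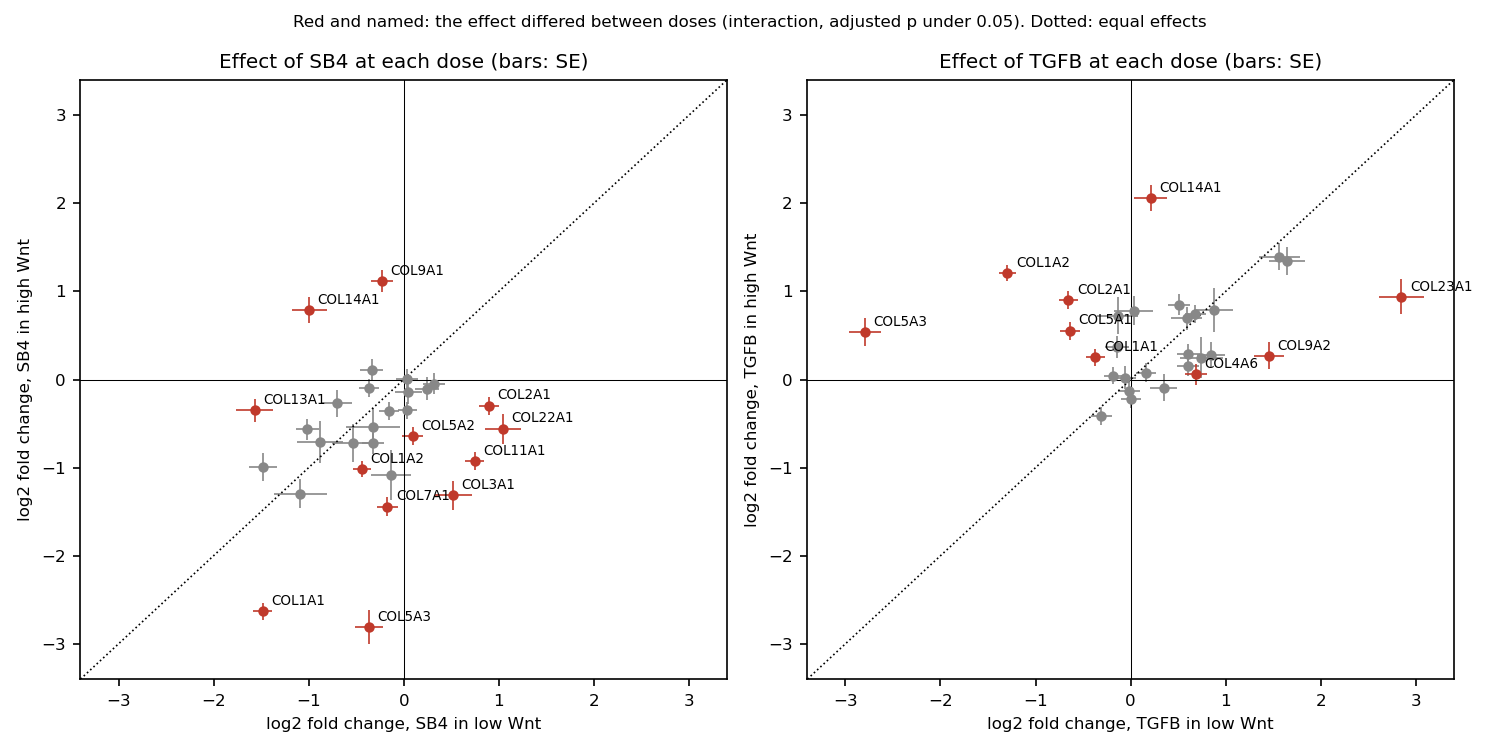
log2 fold changes (± SE) of the 29 described genes with SB4 (left) and TGFB (right), low Wnt on the x axis and high Wnt on the y axis. Red, named genes differed in effect between doses at an adjusted p under 0.05, and the dotted line marks equal effects; COL1A2 with TGFB lies at -1.30 and 1.21, COL5A3 with SB4 at -0.37 and -2.81.

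The effect of SB4 differed between the doses (a test of the interaction) for 12 members, 3 more positive in high Wnt and 9 more negative, against 2.71% and 3.36% of all genes. Fibrillar genes made up 7 of the 9, led by COL5A3 (a difference of -2.44 ± 0.25 log2, adjusted p = 9.02e-06), COL3A1 (-1.84 ± 0.26, adjusted p = 0.00027) and COL11A1 (-1.67 ± 0.15, adjusted p = 2.35e-06). The positive differences were COL14A1 (1.78), COL9A1 (1.35) and COL13A1, whose call was lost without low-Wnt + SB4 replicate 2 (adjusted p = 0.0509). That of COL1A2 was lost in 3 such fits (up to 0.0729, without low-Wnt replicate 1). The same difference was called positive for 4 of 8 stem cell and 3 of 6 central nervous system progenitor markers, and their part in the result was not tested.

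The effect of TGFB differed between the doses for 12 members as well, 6 more positive in high Wnt and 6 more negative, against 5.73% and 6.06% of all genes. The positive differences were 5 fibrillar genes, COL5A3 (3.33 ± 0.23 log2, adjusted p = 1.2e-07), COL1A2 (2.50 ± 0.13, adjusted p = 4.95e-09), COL2A1 (1.56 ± 0.15, adjusted p = 1.99e-06), COL5A1 and COL1A1, and the FACIT gene COL14A1. The negative differences were those of COL4A4, COL4A6, COL8A2, COL9A2, COL17A1 and COL23A1, and the other 6 fibrillar genes were not called, COL11A2 (adjusted p = 0.0734) and COL27A1 (0.0746) being nearest. The calls of COL17A1 (0.13 without low-Wnt + TGFB replicate 2), COL4A6 (0.0758 without high-Wnt replicate 2) and COL8A2 (0.0693 without high-Wnt replicate 1) were lost on leaving out 1 library. The difference was called negative for 5 of 8 stem cell markers and positive for 4 of 6 central nervous system progenitor markers, and their part in the result was not tested.

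TGFB was also set directly against SB4 at the same dose. In low Wnt 24 members were higher with TGFB and 7 lower, against 18.4% and 17.1% of all genes, with a median log2 difference of 0.96 over the members and -0.01 over all genes. In high Wnt 27 were higher and 3 lower, against 13% and 11.2%, with a median of 0.93 over the members and 0.00 over all genes. All 7 genes lower in low Wnt (COL1A2, COL2A1, COL5A1, COL5A3, COL11A1, COL22A1 and COL27A1) were among those higher in high Wnt, against 10.4% of all genes lower in low Wnt. COL5A3 was -2.43 log2 in low Wnt (adjusted p = 6.43e-09) and 3.34 in high Wnt (adjusted p = 2.4e-09). COL1A1 was higher with TGFB at both doses, by 1.11 ± 0.10 and 2.88 ± 0.10 log2, as were COL6A3 (2.65 and 2.69) and COL3A1 (1.12 and 2.66). Leaving out 1 library ended 7 of the 31 calls in low Wnt, at the largest adjusted p for COL6A6 (0.385 without low-Wnt + TGFB replicate 2), COL6A1 (0.359 without low-Wnt + TGFB replicate 2), COL5A1 (0.22 without low-Wnt + TGFB replicate 2), COL17A1 (0.131 without low-Wnt + SB4 replicate 2), COL24A1 (0.118 without low-Wnt + SB4 replicate 2), COL27A1 (0.117 without low-Wnt + TGFB replicate 1) and COL19A1 (0.0732 without low-Wnt + TGFB replicate 2). It ended 7 of the 30 in high Wnt, those of COL17A1 (0.268 without high-Wnt + TGFB replicate 2), COL18A1 (0.206 without high-Wnt + SB4 replicate 2), COL28A1 (0.171 without high-Wnt + TGFB replicate 1), COL27A1 (0.164 without high-Wnt + TGFB replicate 1), COL16A1 (0.0987 without high-Wnt + SB4 replicate 2), COL4A2 (0.0869 without high-Wnt + TGFB replicate 2) and COL9A2 (0.0758 without high-Wnt + SB4 replicate 1). In low Wnt all 8 stem cell and all 4 endoderm markers were called higher with TGFB than with SB4 (median log2 differences of 5.05 and 8.79), as were 4 of 6 mesoderm markers, and 4 of 6 central nervous system progenitor markers were called lower and 1 higher. In high Wnt all 6 mesoderm markers were called higher (median 1.96) and 3 of 6 central nervous system progenitor markers lower. Their part in the result was not tested.

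Chains that assemble together were then compared as ratios of CPM per kilobase of exon, a scale on which genes of unequal length can be set side by side. The type I trimer takes 2 COL1A1 chains per COL1A2 chain. The COL1A1 to COL1A2 ratio was 0.89 and 0.96 in hESC, 0.36 and 0.35 with low Wnt, 0.19 and 0.15 with low Wnt + SB4, and 0.65 and 0.68 with low Wnt + TGFB. It was 0.86 and 0.82 with high Wnt, 0.25 and 0.30 with SB4 and 0.41 and 0.46 with TGFB. On this scale it was below 1 in every library and lowest with SB4 at either dose. In hESC replicate 2 the value below 1 rests on the exon lengths used, as COL1A1 had 2799 fragments and COL1A2 2659. The COL4A1 to COL4A2 ratio, for a trimer with 2 COL4A1 chains, was 0.72 and 0.77 in hESC, 0.52 and 0.53 with low Wnt, 0.41 and 0.41 with SB4 and 0.85 and 0.96 with TGFB. At the high dose it was 0.44 and 0.42 alone, 0.33 and 0.33 with SB4 and 0.48 and 0.46 with TGFB, again lowest with SB4 at each dose.

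The COL5A1 to COL5A2 ratio was 0.32 and 0.34 in hESC, 2.34 and 2.75 with low Wnt, and 0.48 and 0.54 with high Wnt. At the low dose it was 1.89 and 1.80 with SB4 and 1.05 and 0.98 with TGFB. At the high dose it was 0.76 and 0.73 with SB4 and 0.50 and 0.40 with TGFB. The COL6A1 to COL6A2 ratio was 3.42 and 3.61 with low Wnt + SB4 and 1.38 to 2.58 in the other 12 libraries. COL6A3 was at most 0.07 of COL6A1 in any library. The COL9A2 to COL9A3 ratio was 0.02 and 0.04 in hESC, 0.17 to 0.39 in the low-Wnt groups and 0.96 to 1.79 in the high-Wnt groups, with no overlap. COL11A1 per COL2A1 was 1.37 and 1.98 in hESC and 0.17 and 0.17 with high Wnt + TGFB. These ratios compare RNA levels and carry no test.

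**Figure D5:**
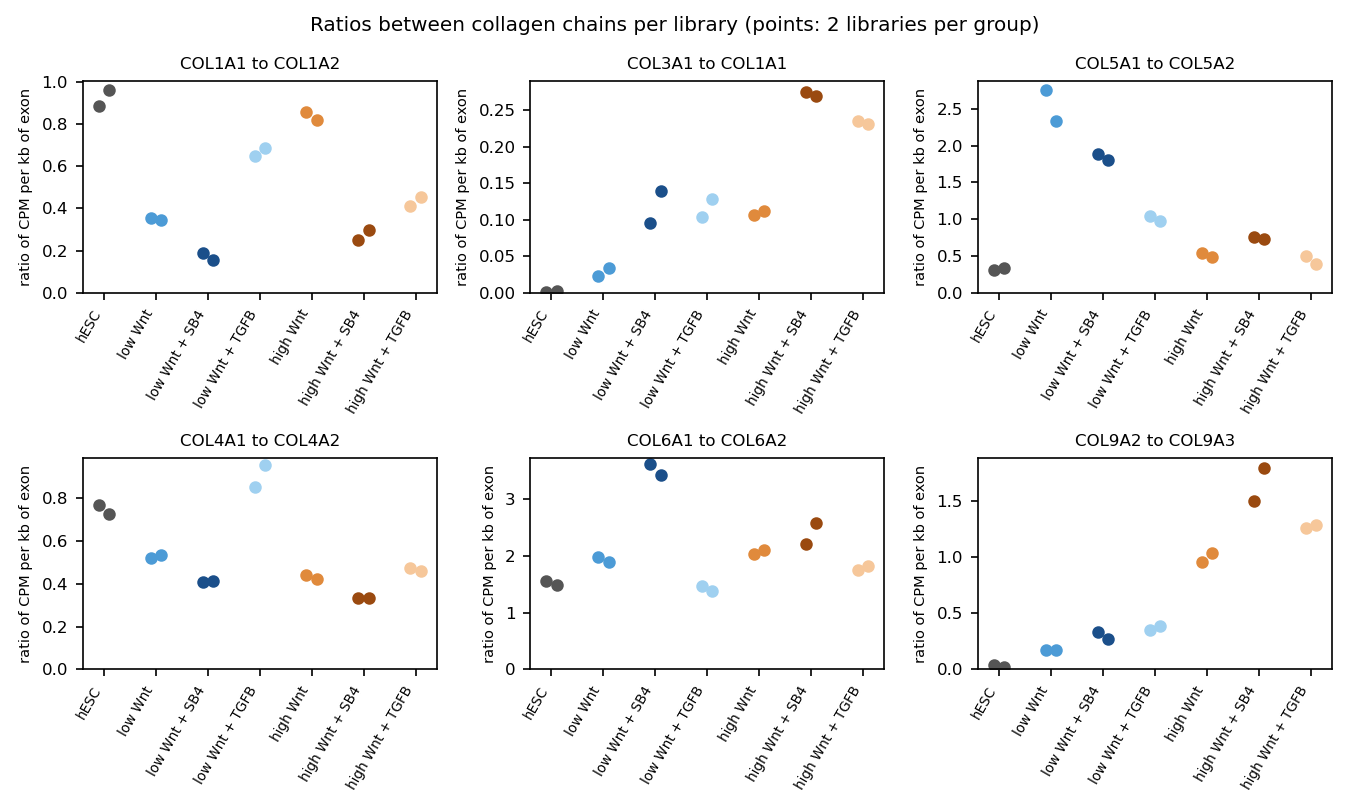
Ratios of CPM per kilobase of exon between collagen chains in each library (points, 2 per group), for 6 pairs. COL1A1 to COL1A2 runs from 0.15 with low Wnt + SB4 to 0.96 in hESC, and COL9A2 to COL9A3 from 0.02 in hESC to 1.79 with high Wnt + SB4.

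Several members neighbour each other in the genome. COL3A1 and COL5A2 lie tail to tail on chromosome 2 with 19168 bases between them, and both rose with TGFB at each dose, while SB4 lowered both in high Wnt and neither was called in low Wnt (adjusted p of 0.107 and 0.649). From hESC to low Wnt, COL3A1 went from 0.487 to 7.01 CPM on average. COL5A2 went from 74.8 to 69.4 CPM there, with overlapping libraries. COL6A1 and COL6A2 lie 93069 bases apart on chromosome 21, and with TGFB in low Wnt COL6A2 rose by 0.61 log2 while COL6A1 changed by 0.16 (adjusted p = 0.289). COL18A1, 468028 bases from COL6A1, rose by 0.85 log2 in the same comparison. Differences between neighbouring genes were not tested.

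The collagen processing genes were read from a list of 33 enzymes, chaperones and proteases, of which 31 were tested. Between the doses 16 (51.6%) were called higher with high Wnt and 1 (3.23%) lower, against 19.4% and 19.1% of all genes. With SB4 in high Wnt 13 (41.9%) were called lower, against 11.6% of all genes, and the other 18 were not called. The genes with the smallest p among those 13 were P3H2, a prolyl 3-hydroxylase (47.6 CPM with high Wnt and 18.7 with SB4 on average, -1.34 log2), P4HA2, a prolyl 4-hydroxylase subunit (-1.36), CREB3L1, a transcription factor of collagen secretion (-1.78), and LOX, a cross-linking lysyl oxidase (-1.76). With TGFB in high Wnt 5 (16.1%, against 3.75% of all genes) were called higher and the other 26 were not called, led by LOX (21.6 to 75 CPM, 1.79 log2, adjusted p = 7.64e-06) and PCOLCE, a procollagen C-proteinase enhancer (0.91, adjusted p = 0.000145). In low Wnt 3 (9.68%) were called higher with SB4 and 8 (25.8%) lower, against 4.84% and 6.39% of all genes, with COLGALT2 at -1.05 log2. With TGFB in low Wnt 5 were called in each direction (16.1%), near the 13.7% and 12.2% of all genes, with P4HA1 at -0.99 log2.

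Of 6 tested collagen receptors, SB4 in high Wnt lowered 1 (16.7%, against 11.6% of all genes), ITGB1, the shared integrin beta chain (-0.34 log2, adjusted p = 0.0175), and the other 5 were not called. TGFB in low Wnt lowered 2 (33.3%, against 12.2% of all genes), ITGA1 (-0.86 log2) and DDR1 (-0.99). Of 9 tested chondrogenic genes, TGFB in high Wnt raised 1 (11.1%, against 3.75% of all genes), HAPLN1, the link protein of cartilage matrix (15.4 to 140.7 CPM, 3.19 log2, adjusted p = 2.88e-09), in the libraries where COL2A1 was highest. SOX9, the activator of COL2A1 in cartilage, was at 14.1 and 18 CPM in those libraries and at 20.4 and 24 with high Wnt alone. SOX9 was not called in that comparison, and its part in the COL2A1 result was not tested. SOX5 rose from hESC to low Wnt (5.31 log2), as COL2A1 did, while MATN3 fell (-1.92 log2). There 4 of the 9 were called higher and 4 lower (44.4% each), against 35.8% and 35.6% of all genes. ACAN, the core protein of aggrecan, fell with TGFB in low Wnt (-1.75 log2). MATN3 went there from 3.47 and 4.84 to 12 and 14.8 CPM. In that comparison 2 of the 9 were called higher and 2 lower (22.2% each), against 13.7% and 12.2% of all genes.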

How the data were processed

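Poly(A) RNA of 14 libraries in 7 groups was sequenced. The authors deposited counts of fragments per gene, which per the file headers were made with featureCounts 2.0.0 (exons summed by gene, fragments counted, reverse-stranded), on hg38 alignments from HISAT2 2.2.0 per the submitters' processing notes. Fragments that map to several places or overlap several genes are left uncounted by that setting, which bears on COL11A2. Lengths are those of the table.

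Here, counts were filtered (filterByExpr by group), scaled by TMM and fitted in 1 edgeR 4.0.16 quasi-likelihood model (R 4.3.3) of all 14 libraries, since groups hold 2 libraries each, with p adjusted over 16149 genes by Benjamini-Hochberg. Genes with a group mean of at least 10 CPM are given per library, others by range and counts. From the other lists at most 4 called genes per comparison with the smallest p are named. SOX9, SOX10, TFAP2B, PAX3, EPCAM, DCN, KRT5 and KRT14 were also named, after their values were seen. The members, classes and lists were chosen with earlier results of these data known. Alternatives were DESeq2 1.42.0, other scalings, no filter, a minimum log2 change of 1, a replicate block, only the groups compared, no hESC, and each library left out. Upstream sequences come from RefSeq (GRCh38.p14, 32 of 44 members matched by symbol).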

Additional observations from a re-analysis of the deposited data

Results flagged for a closer look

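The effects of both additives were compared between the Wnt doses by an interaction term in the edgeR model, and 24 effects on collagen genes differed at an adjusted p under 0.05. Differences are the log2 effect in high Wnt minus that in low Wnt.

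SB4 acted more negatively in high Wnt on COL5A3 (-2.44), COL3A1 (-1.84), COL11A1 (-1.67), COL22A1 (-1.60), COL7A1 (-1.27), COL2A1 (-1.19), COL1A1 (-1.15), COL5A2 (-0.74) and COL1A2 (-0.57). It acted more positively there on COL14A1 (1.78), COL9A1 (1.35) and COL13A1 (1.22). The adjusted p of these 12 ran from 2.35e-06 (COL11A1) to 0.0125 (COL1A2). For COL11A1 and COL22A1 the effect itself was called in opposite directions at the 2 doses, higher in low Wnt and lower in high Wnt, and for COL14A1 the other way round.

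TGFB acted more positively in high Wnt on COL5A3 (3.33), COL1A2 (2.50), COL14A1 (1.85), COL2A1 (1.56), COL5A1 (1.19) and COL1A1 (0.62). It acted more negatively there on COL4A4 (-4.02), COL8A2 (-3.43), COL17A1 (-2.41), COL23A1 (-1.91), COL9A2 (-1.19) and COL4A6 (-0.63). The adjusted p of these 12 ran from 4.95e-09 (COL1A2) to 0.0306 (COL17A1). COL4A4, COL8A2 and COL17A1 rest on few fragments, with at most 38, 33 and 31 in any library of the groups compared. In low Wnt + TGFB the 4 endoderm markers summed to 41.6 and 91.2 CPM, against 4.93 CPM or less in every library of the other groups, and their part in these differences was not tested.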

How the results depend on the processing

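Of 253 calls of a member in a comparison, 193 were kept in every fit that tested the gene and 60 were lost in at least 1, the minimum log2 fold change of 1 set aside, and no direction reversed. DESeq2 ended 13 calls and added 6, library totals alone ended 6 and added 5, only the groups compared ended 5 and added 14, RLE scaling ended 2 and added 2, and leaving out hESC ended 0 and added 13. No filter on low counts ended 1 call and added 31, giving 20 called members for SB4 in low Wnt and 18 for the dose difference of TGFB (10 positive, 8 negative). A minimum log2 fold change of 1 ended 86 calls and left 7 called members for SB4 in low Wnt, 11 for TGFB in low Wnt, 9 for SB4 in high Wnt, 4 for TGFB in high Wnt and 18 for TGFB against SB4 in high Wnt, by construction. Leaving out 1 library gave 30 to 33 for low Wnt against hESC, 32 to 33 for high Wnt against hESC, 26 to 28 for high against low Wnt, 9 to 12 for SB4 and 18 to 23 for TGFB in low Wnt, 14 to 16 for SB4 and 10 to 12 for TGFB in high Wnt, 26 to 28 and 24 to 26 for TGFB against SB4 in low and high Wnt, and 10 to 13 (SB4) and 10 to 16 (TGFB) for the dose differences; the cause was not tested. A lone library was assumed to vary like the other groups.

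The replicate numbers are not stated to pair libraries, and the 21 correlations of replicate deviations between groups ran from -0.149 to 0.270. A fit with the replicate block ended 0 calls and added 12, giving for example 16 called members for SB4 in low Wnt and 15 for TGFB in high Wnt.

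With library totals alone the summed collagen level was 2683 CPM in hESC, 3665 with low Wnt + TGFB, 3993 with high Wnt + SB4 and 8062 with high Wnt + TGFB. Without the gene of highest level it was 2109 CPM in hESC, 2950, 2845 and 3011 with low Wnt alone, with SB4 and with TGFB, and 4708, 3120 and 6577 with high Wnt alone, with SB4 and with TGFB. Genes with few fragments are limited by counting error.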
